A study of Mus musculus with 6 samples.

Results

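Tenascins, thrombospondins and fibronectin are secreted glycoproteins of the extracellular matrix, and 6 of their genes, among 203 named genes on the array, were measured in reloaded mouse soleus: Tnc, Tnxb, Thbs1, Thbs2, Thbs3 and Fn1. Every probe that the platform annotation assigns to one of these genes was taken, which gave 7 of the 223 probes of the array, because Fn1 has 2 probes. RNA came from the belly of the soleus, a slow postural muscle of the lower leg, in 6 mice of the 129/SV strain labelled WT, with 1 array per mouse. All 6 had their hindlimbs unloaded by suspension for 7 days and then carried their weight again for 1 day. No unloaded or untreated muscle is among the samples, so the values describe levels and spread in 1 condition and show no effect of loading. The mice are named here by the number in their sample titles, 175, 176, 177, 178, 202 and 203.

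Fibronectin is the provisional scaffold to which cells attach through integrins, and new matrix is laid down on it. Tenascins and thrombospondins are called matricellular proteins: they sit in the matrix but mostly change how cells adhere to it and respond to it. In muscle, tenascin-C is known from tendon, the myotendinous junction and regenerating or mechanically stressed tissue. Tenascin-X is a constant component of connective tissue sheaths, where it helps to space and hold collagen fibrils. Thrombospondins 1 and 2 restrain the growth of blood vessels, and thrombospondin 1 can also release active TGF-beta from its latent form.

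The deposited signal of a probe is given here as parts per mille of the array's total over 221 probes, a scale read from the values. Signals of the 7 probes were deposited in steps of 0.1 per mille. The 10th percentile of an array's probes is called its floor. Clear of the floor means a signal of 2 or more times that level on the same array. The floor was 0.6 per mille in samples 175, 176 and 203, 0.7 in 177 and 178 and 0.5 in 202. All 7 measured muscle fibre markers, among them the slow myosin Myh7 and myoglobin (Mb), were clear of it in every mouse, and together they gave 225.3 to 286.2 per mille. Samples 202 and 203 were more like each other than like the other 4. Log2 signals over all probes correlated at r from 0.979 to 0.993 in the 7 pairs of arrays within 175 to 178 or 202 and 203, and at 0.956 to 0.975 in the 8 pairs across (over probes, which are not independent). In level the 2 differed: sample 202 was at or tied for the lowest signal in 66.8% of all probes and sample 203 in 7.62%. Results are therefore also given without them. With 1 array per mouse, a difference between mice cannot be told apart from one between labellings or arrays. In whole muscle, fewer cells that make a transcript and less transcript per cell cannot be told apart either.

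Of the 7 probes, 2 were above this limit in every mouse, Tnxb and one of the Fn1 probes. Tnc was clear in 3 mice, and Thbs1, Thbs2, Thbs3 and the other Fn1 probe in none. Over the whole array 25.6% of probes were clear in all mice and 54.3% in none, so 2 of 7 (28.6%) and 4 of 7 (57.1%) are close to the array as a whole. Without samples 202 and 203 the same count of 2 probes was clear in all remaining mice.

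**Figure D1:**
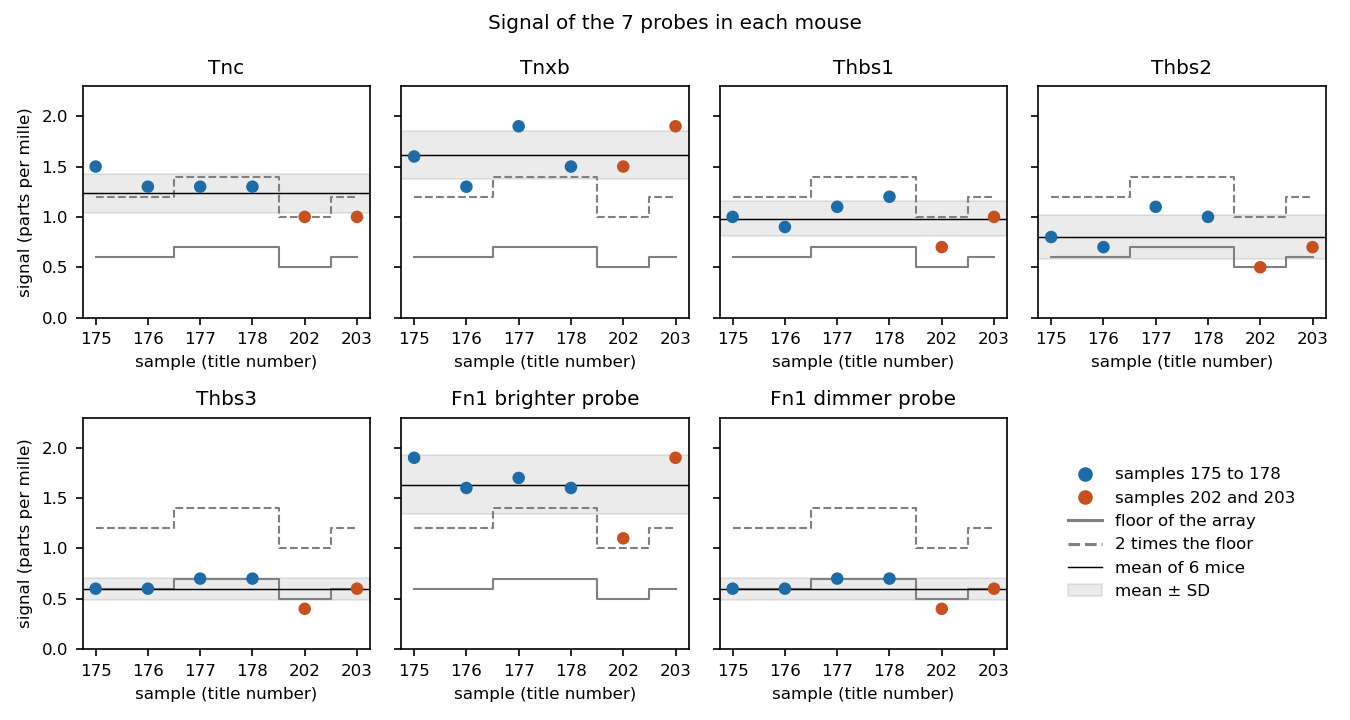
Signal in parts per mille (vertical axis) of the 7 probes in each of the 6 mice (horizontal axis), with the floor of each array, 2 times that floor, and the mean ± SD of the 6 mice. Tnxb and the brighter Fn1 probe lie above the dashed line in all 6 mice, and Thbs3 and the dimmer Fn1 probe lie on the floor in 5 mice and under it in sample 202.

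Fn1 encodes fibronectin. Its brighter probe ranged from 1.1 to 1.9 per mille with a median of 1.65, and gave 1.63 ± 0.294 per mille (SD, n = 6). Sample 202 was lowest at 1.1, while the other 5 mice lay between 1.6 and 1.9, with samples 175 and 203 level at the top. As a multiple of the array's floor the probe gave 2.65 ± 0.429 (SD, n = 6), between 2.20 in sample 202 and 3.17 in samples 175 and 203. In sample 202 it exceeded the limit for being clear by 1 step of the deposited values.

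The dimmer Fn1 probe, annotated to the same sequence, ranged from 0.4 to 0.7 per mille with a median of 0.6 and gave 0.60 ± 0.110 per mille (SD, n = 6). It equalled the floor of the array in 5 mice and lay 1 step under it in sample 202. The dimmer probe thus ordered the mice as the floors of the arrays did. On the deposited scale the 2 probes ordered the mice differently. Of the 15 pairs of mice, 6 were in the same order on both, 4 in the opposite order and 5 were tied on at least 1 of them. This depended on scaling: same minus opposite order was 2 here, -1 after median centring, 8 after quantile normalization and 5 after division by the floor. Which of the 2 probes reports fibronectin RNA, or which exons each covers, was not examined here, since the probe sequences were not used.

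Tnxb encodes tenascin-X. Its signal ranged from 1.3 to 1.9 per mille with a median of 1.55, and gave 1.62 ± 0.240 per mille (SD, n = 6). Samples 177 and 203 were highest at 1.9 and sample 176 was lowest at 1.3. It was the only one of the 7 probes for which sample 202 was not at or tied for the lowest value, so 6 of the 7 were, against 66.8% of all probes. Relative to the floor, Tnxb gave 2.64 ± 0.421 (SD, n = 6), with its highest multiples, 3.0 and 3.17, in samples 202 and 203 and its lowest, 2.14, in sample 178. The step by which sample 178 exceeded the limit was again 1, and with the floor taken as the 20th percentile Tnxb was clear in 5 mice.

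Tnc encodes tenascin-C. The signal ran from 1.0 to 1.5 per mille with a median of 1.3 and gave 1.23 ± 0.197 per mille (SD, n = 6). Sample 175 was highest at 1.5, samples 176, 177 and 178 all read 1.3, and samples 202 and 203 both read 1.0. These low readings did not overlap with the 4 others on the deposited scale. Samples 202 and 203 both lay below all others for 1 of the 7 probes, Tnc, and for 13.9% of all probes. Divided by the floor, the Tnc values did overlap: sample 202 gave 2.0 and sample 203 gave 1.67, against 1.86 to 2.50 in the others. Tnc was clear of the floor in samples 175, 176 and 202. Its value in sample 202 lay on the limit, and those in samples 176, 177 and 178 lay 1 step from it, so the count of 3 mice rests on differences as small as the precision of the table. With a limit of 1.5 times the floor Tnc was clear in 6 mice, and with 3 times the floor in 0.

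None of the thrombospondin probes was clear of the floor in any mouse. In mean signal Thbs1 lay near the middle of the array, above 52.0% of all probes, while Thbs2 lay above 35.4% and Thbs3 above 3.14%. The median signal of an array was itself low, from 0.8 per mille in sample 202 to 1.0 in samples 177, 178 and 203. Thbs1, whose product acts on vessels and on latent TGF-beta, ranged from 0.7 to 1.2 per mille with a median of 1.0 and gave 0.983 ± 0.172 per mille (SD, n = 6). Sample 202 was lowest and sample 178 highest. Its multiple of the floor varied little, at 1.59 ± 0.120 (SD, n = 6) and between 1.40 and 1.71, so Thbs1 stayed above the floor in all 6 mice and under the limit for being clear in all 6. With a limit of 1.5 times the floor it was clear in 5 mice.

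Thbs2, the relative that also restrains vessels and takes part in collagen fibril assembly, ranged from 0.5 to 1.1 per mille with a median of 0.75 and gave 0.80 ± 0.219 per mille (SD, n = 6). Samples 177 and 178 were highest, at 1.1 and 1.0, and sample 202 was lowest. The signal in sample 202 equalled the floor, and in samples 176 and 203 it was 1 step above. Its highest multiple of the floor was 1.57, in sample 177.

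Thbs3, a thrombospondin known from developing skeleton, gave 0.60 ± 0.110 per mille (SD, n = 6) with a lowest value of 0.4, a median of 0.6 and a highest of 0.7. In 5 mice the signal equalled the floor, and in sample 202 it was 1 step below. Its 6 values were identical to those of the dimmer Fn1 probe. They were also identical to those of 4 further probes, singled out after their values were seen: those of Pgf, a vascular growth factor, and Adra1b, an adrenergic receptor, and the unnamed probes 14H and 8D. A signal on the floor says neither that Thbs3 RNA was present nor that it was absent. Hybridization of one thrombospondin's transcript to another's spot was not examined.

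The spread between mice was near that of the array as a whole. The median SD of log2 signal was 0.29 among the 7 probes and 0.27 among all 223. Thbs2 had the widest spread of the 7, at 0.41, higher than that of 87.0% of all probes and above the median of 0.23 for the 56 probes in its quartile of mean signal. Tnxb had the narrowest, at 0.21, higher than that of 26.0% of all probes. The others lay between these: Tnc at 0.24, Thbs1 at 0.27, the brighter Fn1 probe at 0.29, and Thbs3 and the dimmer Fn1 probe at 0.30. From the lowest to the highest mouse, the Thbs2 signal differed 2.20-fold and the Tnxb signal 1.46-fold, which corresponds to 6 steps of the table for each.

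For 6 of the 7 probes the spread was smaller without samples 202 and 203. The SD was then 0.10 for Tnc, 0.12 for the brighter Fn1 probe and 0.13 for Thbs3, whereas Tnxb stood at 0.23, and the median over all probes was 0.18. Leaving out sample 202 alone took the brighter Fn1 probe to 0.13 and Thbs1 to 0.16, while Tnc stood at 0.21 and Thbs2 at 0.30. With each array divided by its floor the SD of Thbs1 was 0.11 and that of Thbs3 0.13, where the median of all probes was 0.20. In the same setting Tnc had an SD of 0.20. Thbs2 stood at 0.24 and both Tnxb and the brighter Fn1 probe at 0.23.

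**Figure D2:**
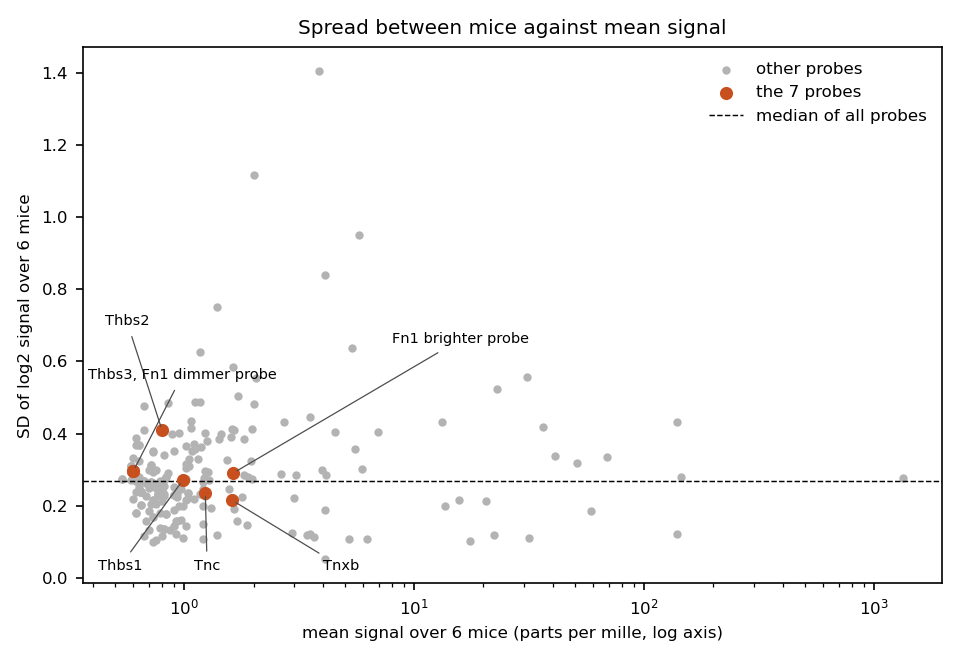
SD of log2 signal over the 6 mice (vertical axis) against mean signal in parts per mille (horizontal log axis) for all 223 probes, with the 7 probes in orange. Thbs2 lies highest of the 7 at 0.41 and Tnxb lowest at 0.21, around the median of all probes at 0.27 (dashed line).

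Covariation over the mice was described by order. For 2 probes, the number of the 15 pairs of mice that both put in the same order, minus the number in opposite order, is called the net agreement here; ties count for neither. No correlation between probes over mice is reported, since samples 202 and 203 differ from the rest and neither run of sample numbers holds 6 mice. Over the 21 pairs that the 7 probes form, the median net agreement was 4 of 15, against 3 over all 24753 pairs of probes of the array. Within the runs of sample numbers, 175 to 178 and 202 with 203, which leave 7 pairs of mice, it was 3, against 2 over all pairs of probes. The median of the 21 pairs was 3 after median centring, 3 after quantile normalization and 1 after division by the floor, against 1, 0 and 1 over all pairs.

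Agreement was uneven within the set. Thbs1, Thbs2, Thbs3 and the dimmer Fn1 probe had a net agreement of 11 in each of the 6 pairs they form. Of all pairs of probes, 7.95% reached or passed that value. Against the other 222 probes, the median net was 7 for Thbs1 and Thbs2 and 6 for Thbs3 and the dimmer Fn1 probe. It was 3 for Tnc, Tnxb and the brighter Fn1 probe. The Thbs1, Thbs2 and Thbs3 probes are numbered 10H, 10I and 10J. With the 10 probes of the same number, the median net was 10 for Thbs1 and Thbs3 and 8 for Thbs2. For the dimmer Fn1 probe it was 9.5, for Tnc 4, for Tnxb 3.5 and for the brighter Fn1 probe 3. Thbs3 and the dimmer Fn1 probe have the same values, so their own pair agrees by construction. For the same reason their pairs with Thbs1 repeat each other, as do those with Thbs2. Both probes tied 4 of the 15 pairs of mice, so 11 is the highest net that either can reach. Thbs1 and Thbs2 put 12 pairs of mice in the same order and 1 in the opposite order, with 2 tied. The same 4 probes also followed the floor: 11 of the 15 pairs of mice had different floors, and each of the 4 ordered all 11 as the floor did. Of all 223 probes, 49 (22.0%) did so, and 38 of these 49 did not clear it in any mouse. Thbs3 and the dimmer Fn1 probe equalled the floor in 5 mice, so their order of the mice is that of the floor. The floor is a percentile of the same signals, so dim probes and the floor are not separate measurements. Its part in the agreement of the thrombospondins was not tested. With each array divided by its floor, Thbs3 and the dimmer Fn1 probe were at 1.0 in 5 mice and at 0.80 in sample 202, so the net 5 of their pairs is that mouse against the other 5. Thbs1 and Thbs2 stood at a net 7 on that scale, and sample 202 was lowest for both. After quantile normalization Thbs1 and Thbs2 agreed at a net 12, but Thbs1 and Thbs3 at -3 and Thbs2 and Thbs3 at 0.

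The 3 probes with clearer signals agreed less with one another. Tnc and Tnxb had a net agreement of -1, with 4 pairs of mice in the same order, 5 opposite and 6 tied. Tnc and the brighter Fn1 probe stood at 4, and Tnxb and the brighter Fn1 probe at 7, with 9 pairs in the same order and 2 opposite. All 3 values depended on how arrays were scaled. After median centring, quantile normalization and division by the floor, Tnxb and the brighter Fn1 probe stood at 0, -6 and 2. Tnc and the brighter Fn1 probe stood at 6, 11 and 1. Tnc and Tnxb stood at -7, -2 and -4. Between these 3 probes and the 4 dimmer ones, net agreement ranged from 2 to 6 over all pairs of mice, from -2 to 5 of 7 within the runs of sample numbers and from -4 to 5 with arrays divided by their floor. Within the runs, Tnc stood at -1 with Thbs1 and Thbs2 and at -2 with Thbs3 and the dimmer Fn1 probe. Tnc tied every pair within the runs that does not hold sample 175, so its values there rest on that mouse.

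**Figure D3:**
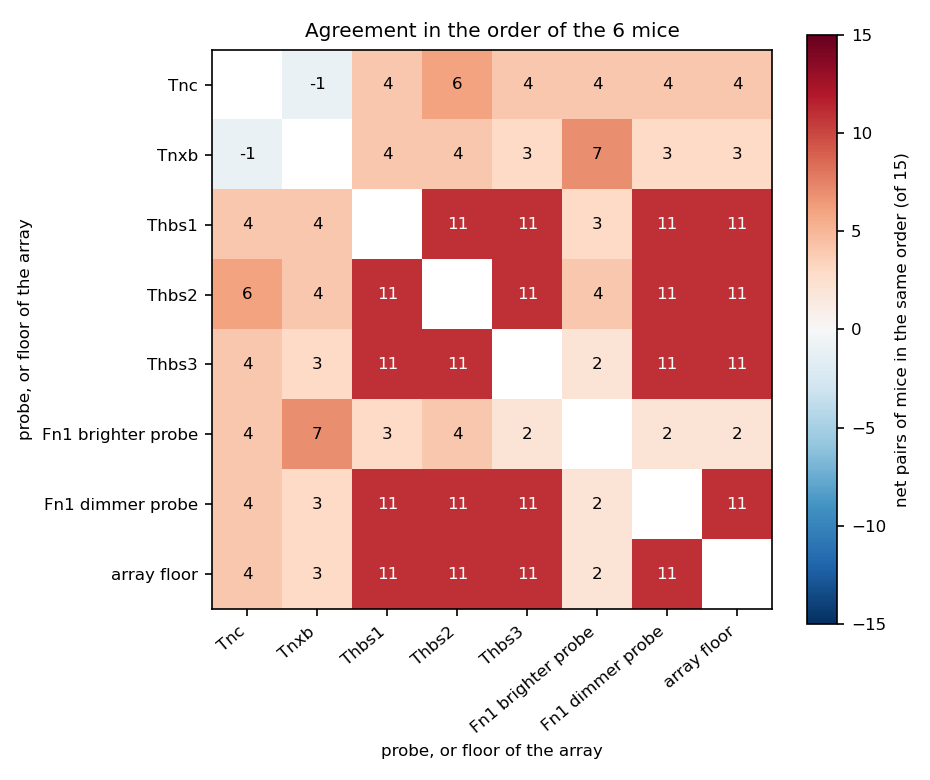
Net number of the 15 pairs of mice put in the same order by each pair of the 7 probes, and by each probe and the floor of the arrays (color scale; both axes list probes and the floor). Thbs1, Thbs2, Thbs3, the dimmer Fn1 probe and the floor form a block at 11, and Tnc and Tnxb stand at -1.

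For each probe the 3 named probes outside the family with the highest net agreement were noted, ties being settled by the smaller mean difference in log2 deviation. The likeness is measured over 6 mice. For Tnc these were the glycolytic enzyme Pgk1, the glucose transporter Slc2a2 and the DNA topoisomerase Top1, each with 11 pairs in the same order and 0 opposite. Within the runs of sample numbers the net was 3 of 7 for each of the 3. Tnc tied the other 4 of those 7 pairs, so 3 was the highest net it could reach there. Each of these 3 untied pairs holds sample 175. The 8 pairs of mice across the runs make up the rest. For Tnxb they were Srf at a net 11, Jun at 11 and the angiotensin-converting enzyme Ace at 10. For the brighter Fn1 probe they were Fabp4, a fatty acid binding protein, with 12 pairs in the same order and 1 opposite, the testis cytochrome Cyct and the lysosomal membrane gene Scarb2, each at a net 11. Fabp4 was clear of the floor in all 6 mice, and Cyct and Scarb2 in none. Thbs1 was most like Pdgfra, a growth factor receptor of fibroblasts, with 14 pairs in the same order and 0 opposite, then Lipe and the protease inhibitor Timp3 at 13. Thbs2 was most like the integrin chain Itgav and the lysosomal protease Ctsh at 14, then the growth factor Pdgfb at 13. Of the 6 named for Thbs1 and Thbs2, Timp3 alone was clear of the floor in all mice. Pdgfra and Ctsh were clear in 2 mice and Lipe, Itgav and Pdgfb in none. Like the floor, Pdgfra, Lipe, Timp3, Itgav and Pdgfb were lowest in sample 202 and highest in samples 177 and 178. The median net of Thbs1 and of Thbs2 with the other 222 probes was itself 7. Whether these likenesses go beyond that shared order was not tested. For Thbs3 and the dimmer Fn1 probe the rule returned Pgf and Adra1b, whose values were the same as theirs, and Timp3.

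Pdgfra is the only fibroblast and tendon marker measured. It gave 1.15 ± 0.259 per mille (SD, n = 6) and ranged from 0.8 to 1.5. Of 5 endothelial markers, 1 was clear of the floor in all mice, Pecam1, and their summed signal ran from 5.1 to 8.3 per mille. Cdh5 was clear in 5 mice, and Kdr, Tek and Flt1 in none. Among all probes, 25.6% were clear in all mice and 54.3% in none. No probe was measured for the listed macrophage or nerve and Schwann cell markers. The part of these cell types in the spread of Thbs1 and Thbs2 was not tested.

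Other genes of these pathways were grouped by role. Among 8 measured cell surface receptors of these proteins, 2 were clear of the floor in each mouse, 3 in some and 3 in none. Itgb1, the beta chain shared by most matrix-binding integrins, gave 6.95 ± 1.81 per mille (SD, n = 6). Cd36, a receptor of thrombospondins that also takes up fatty acids, gave 4.52 ± 1.23 per mille (SD, n = 6). The alpha chains Itgav and Itga2 and the growth factor receptor Egfr were clear in none. Itgb5 was clear in 3 mice, and Cd44 and Itga8, a chain that pairs with Itgb1 to bind fibronectin and tenascin-C, in 1 each.

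Of the listed structural partners only laminin chains were on the array, and 1 of these 6 was clear in all mice, Lamc1, at 2.02 ± 0.618 per mille (SD, n = 6). A list of 15 measured proteases, inhibitors and related proteins includes enzymes that cut fibronectin and tenascin-C, but also Plaur and Adam2. Of these 15, 2 were clear in all mice, both of them inhibitors, Timp2 and Timp3. Timp1 was clear in 1 mouse and the other 12 in none. Among all probes of the array, 54.3% were clear in none and 25.6% in all mice. Of 10 regulators, 2 were clear in all mice: Srf, a transcription factor that responds to actin dynamics, gave 1.78 ± 0.293 per mille and Jun, an early response factor, gave 1.60 ± 0.506 per mille (SD, n = 6). Tgfb1, the growth factor that thrombospondin 1 activates and that induces Fn1 and Tnc, was clear in 4 mice, with a mean of 1.27 ± 0.242 per mille (SD, n = 6). The other 7 regulators were clear in none.

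Samples 202 and 203 were compared with samples 175 to 178, because their title numbers form separate runs; what the runs are is not in the labels, and both carry the same condition. In limma with Benjamini-Hochberg adjustment over 223 probes, 6.28% of probes passed an adjusted p of 0.05, and 0 of the 7 did. At an unadjusted p under 0.05 there were 2 of 7 (28.6%), Tnc and Thbs2, against 22.9% of all probes. No adjusted p of the 7 passed in the other settings, which were 10 for Thbs3 and the dimmer Fn1 probe and 11 for the rest; the lowest was 0.0551.

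The log2 difference of Tnc, samples 202 and 203 minus the others, was -0.43 (SE 0.18, 95% confidence interval -0.82 to -0.04, limma adjusted p = 0.174). Both samples lay below all 4 others, which was the case for 13.9% of all probes. For Thbs2 the difference was -0.58 (SE 0.22, interval -1.05 to -0.12, limma adjusted p = 0.127), and sample 203 was level with sample 176 at 0.7 per mille. Thbs1 differed by -0.32, Thbs3 and the dimmer Fn1 probe by -0.40 and the brighter Fn1 probe by -0.23. The median shift of all probes was -0.18. Tnxb had a positive difference of 0.11 (SE 0.20, interval -0.32 to 0.54, limma adjusted p = 0.740). Dividing each array by its floor adds the same 0.24 to the difference of every probe, so that the median shift became 0.06, Tnc stood at -0.19, Thbs1 at -0.08, Thbs2 at -0.34, the brighter Fn1 probe at 0.01 and Tnxb at 0.36 (interval 0.03 to 0.68, limma adjusted p = 0.170). Relative to the median shift, the values are the same on both scales: -0.25 for Tnc, -0.40 for Thbs2, -0.05 for the brighter Fn1 probe and 0.29 for Tnxb. Over the 11 other settings the difference ranged from -0.62 to 0.16 for the brighter Fn1 probe and from -0.06 to 0.36 for Tnxb. In the settings run for each, it ranged from -0.45 to -0.19 for Tnc, from -0.83 to -0.32 for Thbs2, from -0.58 to -0.06 for Thbs1 and from -0.70 to -0.03 for Thbs3 and the dimmer Fn1 probe. The limma adjusted p in those settings ran from 0.105 to 0.505 for Tnc, from 0.0883 to 0.685 for Thbs2 and from 0.170 to 0.993 for Tnxb.

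**Figure D4:**
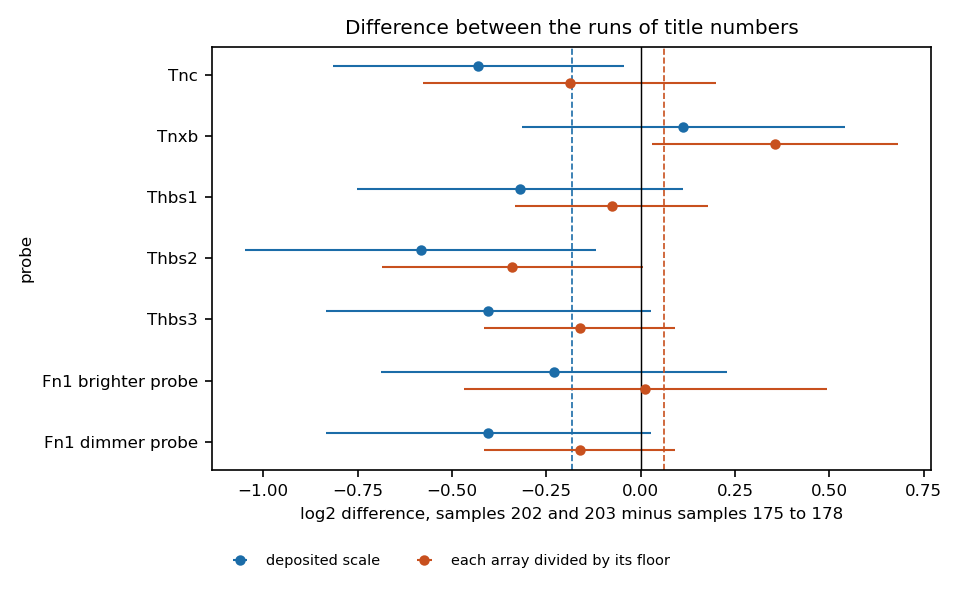
Log2 difference between samples 202 and 203 and samples 175 to 178 (horizontal axis) for the 7 probes (vertical axis), with 95% confidence intervals from limma, on the deposited scale and with each array divided by its floor. Dashed lines give the median shift of all probes, -0.18 and 0.06. Tnxb lies to the right of the median shift on both scales and the other 6 probes to the left.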

How the data were processed

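RNA of 6 soleus muscles was reverse transcribed with gene-specific primers and [alpha-32P]dATP and read on a low-density array, 1 per mouse, per the labels' protocols. The authors deposited 1 linear signal intensity per probe and array. The scanner, background treatment and normalization: not given in the sources used here. That 221 probes sum to about 1000 per mille on each array, between 998.6 and 1000.4, was found from the values; because of it, a bright probe that rises lowers all others. The platform's annotation named 1 gene for 205 probes and none for 18, and names were updated by gene number. Signals were analysed as log2 without a pseudocount.

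The members, lists and tests were chosen with earlier results of these data known. The rule named the 7 probes, the 3 most alike named probes of each, and genes of the listed receptors, matrix partners, proteases and regulators. Runs of title numbers were compared with limma 3.58.1 (lmFit, eBayes) in R 4.3.3, checked on simulated data. Those data had independent noise, no shift shared by a whole array, and changes larger than any difference of the 7 probes. The check therefore does not bear on differences of the size found here. Alternatives were other limits and percentiles for the floor, 3 scalings, a pseudocount of 0.6 per mille, leaving out the dimmest 25% of probes, each mouse, or samples 202 and 203. The samples are biological replicas according to the series text. The number of arrays limits the precision.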

Additional observations from a re-analysis of the deposited data

Results flagged for a closer look

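For each probe, the distance of the extreme mouse to the next, as a share of the range of log2 signal over the 6 mice, was set against Dixon's 95% critical value for 6 values. Chance gives about 1 in 20 separate sets. The value was exceeded for 3 of the 7 probes, each with sample 202 lowest: Thbs3 and the dimmer Fn1 probe, whose values are the same (gap 0.725 of the range for both), and the brighter Fn1 probe (0.686). For Thbs3 and the dimmer Fn1 probe the gap is 2 steps of the table, from 0.4 to 0.6 per mille. Of all 223 probes, 26 (11.7%) exceeded the value, 17 of them with sample 202 lowest. The sets share the same arrays, and sample 202 was at or tied for the lowest signal in 66.8% of all probes.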

How the results depend on the processing

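The count of 2 probes that passed the floor limit in every mouse was 0 with a limit of 3 times the floor and 1 with the floor as the 20th percentile, and it was 2 without each mouse in turn. Over all 223 probes the count of 57 fell as well, to 39 with 3 times the floor and to 52 with the 20th percentile. Mean signals of the 7 probes moved by less than 1 SD when arrays were divided by their floor or when samples 202 and 203 were left out. The median SD of the 7 probes, 0.29, was 0.19 with arrays centred on their median, 0.15 with quantile normalization, 0.16 with a pseudocount and 0.13 without samples 202 and 203. Leaving out single mice gave 0.16 (without sample 202) to 0.32. The median over all probes, 0.27, fell as well. In the same order of settings it was 0.20, 0.17, 0.15 and 0.18, and it was 0.20 without sample 202. The median net agreement of 4 was 3 with arrays centred on their median or quantile normalized, 1 with arrays divided by their floor and 3 of 7 within the number runs, and 1 (without sample 202) to 4 of 10 without each mouse. In limma the 14 probes past the threshold between the runs were 22 with arrays divided by their floor. They were 8 without sample 175, 5 without 176, 2 without 203, 0 without 202 (40 at an unadjusted p under 0.05) and at most 20, without 177; a lone sample in a run is assumed to vary like the others. The cause of these changes was not tested. No paired analysis was possible because all samples form 1 group. Signals under 2 times the floor and the step of 0.1 per mille limit what Thbs1, Thbs2, Thbs3 and the dimmer Fn1 probe can show.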
